A study of Mus musculus with 6 samples.

Results

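Catalase, glutathione peroxidases, peroxiredoxins and superoxide dismutases form the peroxide and superoxide defence of the red cell. Biliverdin reductase B, which reduces flavins and biliverdin, and the enzyme of glutathione synthesis are grouped with them here as antioxidant genes. Of 10 such genes chosen by name, 9 had at least 1 probe set annotated to that gene alone (21 probe sets in all), out of 18193 genes on the array with such a probe set. The tenth, Prdx1, shared all of its 5 probe sets with a second gene symbol and is not analysed here. RNA came from 2 subsets of erythroid precursors of Balb/C mouse fetal liver, S1 and the more mature S3. Flow cytometry separated them by the transferrin receptor CD71, by Ter119, an antigen of maturing red cells, and by markers of other lineages. There were 3 arrays per subset, from sorts on 3 days, and the labels name no genetic change or treatment. Embryo age is given in conflicting ways, as day 12.5 (S1) and day 13.5 (S3) in one label and as day 13.5 for all arrays in another. If the first is right, subset and age cannot be told apart.

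Red cells carry oxygen on heme iron, and oxidation of that iron releases superoxide. Superoxide dismutases turn superoxide into hydrogen peroxide, which catalase, glutathione peroxidases and peroxiredoxins then reduce to water. Glutathione peroxidases draw on glutathione, made first by glutamate-cysteine ligase (Gclc and Gclm), and peroxiredoxins draw on thioredoxin; both are recharged with NADPH.

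Values are log2 signals, on which 1 unit is a doubling, and a gene is represented by its brightest probe set unless another is named. "Called" means an adjusted p under 0.05 in limma over all 11959 genes tested, or over all 22428 probe sets tested where single probe sets are compared. Per array the median was 1.83 to 2.94, and background, from bacterial control probe sets, was 1.01 to 1.74. The 5' parts of transcripts were covered unequally between arrays. The 5' actin control read below the 3' one by a log2 difference of -2.59 to -2.08 on S1 replicates 1 and 2 and S3 replicate 2, called short arrays. On S1 replicate 3 and S3 replicates 1 and 3, called long arrays, it was -0.56 to -0.45. All 6 measured erythroid markers were above background on every array. Summed, they read 11.85 to 12.16 in S1 and 12.81 to 13.07 in S3. Of the 6, 2 were called higher, beside 2.53% of all genes, and 0 lower, beside 12.8%. These 2 were Alas2 (5.51 in S1 and 10.39 in S3) and Slc4a1 (8.84 and 11.29). Summed hepatoblast markers (8 measured, all above background on at least 1 array of each subset) read 8.28 to 8.49 in S1 and 8.04 to 9.98 in S3. Summed megakaryocyte markers (5 measured) read 6.26 to 7.44 in S1 and 8.35 to 8.44 in S3. Macrophage markers (9 measured) read 5.08 to 6.93 in S1 and 5.39 to 6.66 in S3, with Adgre1 not above background on any array. C1qb was above background on every array, at 2.94 to 6.61. Granulocyte markers (7 measured, Elane and Ctsg not above background on any array) read 4.21 to 6.69 in S1 and 3.56 to 7.14 in S3. Of 4 tested, Prtn3 was called lower, from 3.79 in S1 to 0.85 in S3, beside 12.8% of all genes. S100a9 read 5.64 on the long S1 array, 4.75 and 6.08 on the long S3 arrays, and was below background on the short arrays. Endothelial markers (6 measured, Tek not above background on any array) read 3.75 to 4.32 in S1 and 3.38 to 4.30 in S3. Their part in the results was not tested, and fewer cells of a type cannot be told apart from less RNA per cell.

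Biliverdin reductase B was the one antioxidant gene called higher in S3, and none was called lower. That is 1 of 9 measured genes against 2.53% of all genes called higher, and 0 of 9 against 12.8% called lower. The first share rests on Blvrb alone. The subsets did not overlap for 3 of the 9 with S3 higher, beside 5.81% of all genes, and for 0 with S3 lower, beside 29.5%. The median log2 change of the 9 was 0.24, beside -0.33 for all genes tested. Other differences depended on which probe set was read: a dimmer probe set of Prdx2 read higher on every S3 array than on any S1 array but was not called, a Sod2 probe set was called lower, and those of Gclc and Gclm differed between long and short arrays.

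**Figure D1:**
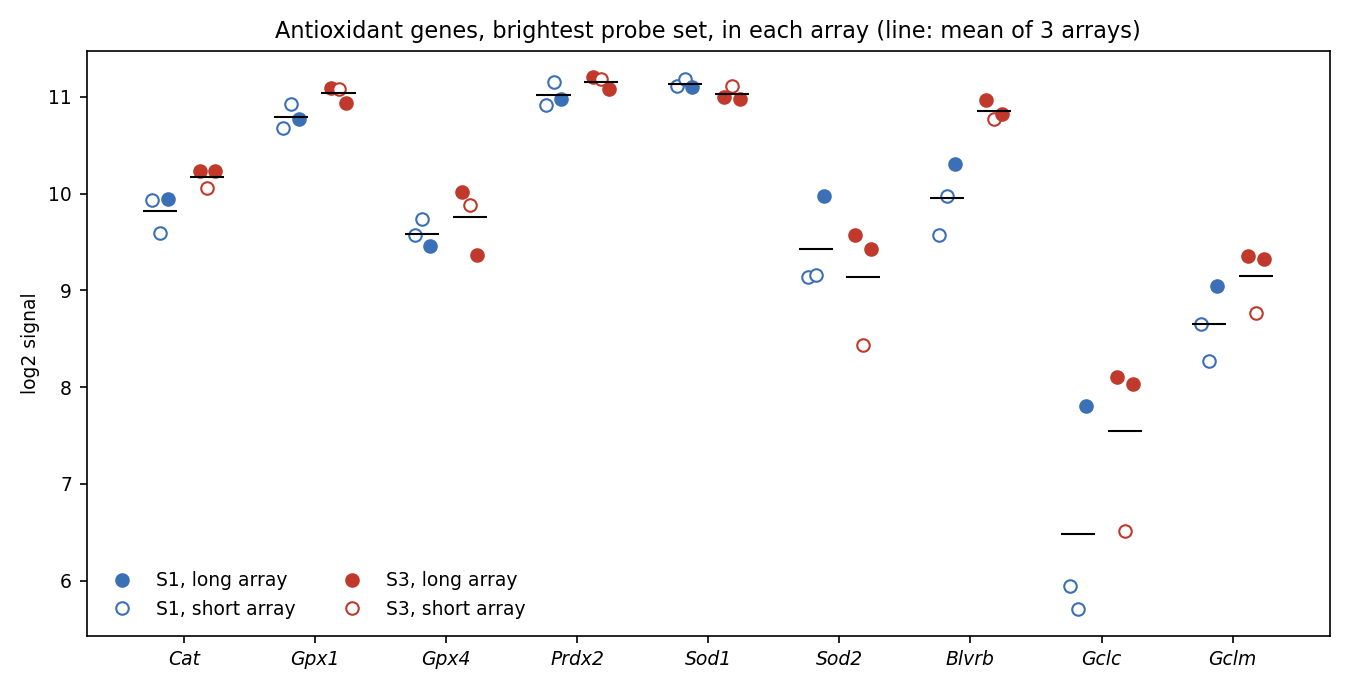
Log2 signal of the brightest probe set of each of 9 antioxidant genes on the 6 arrays, S1 in blue and S3 in red, with filled points for long and open points for short arrays and a line at each mean. Blvrb, Cat and Gpx1 have every S3 point above every S1 point, while the Gclc points split by array type, with short arrays at 5.71 to 6.51 and long arrays at 7.80 to 8.11.

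Blvrb encodes an NADPH-dependent reductase of flavins and of biliverdin IXbeta that is abundant in red cells. It read 9.57, 9.98 and 10.31 on S1 replicates 1 to 3 and 10.96, 10.77 and 10.82 on S3 replicates 1 to 3. All S3 arrays lay above all S1 arrays, and the S3 arrays were closer together (SD 0.10, against 0.37 in S1). The means were 9.95 in S1 and 10.85 in S3, a log2 change of 0.90 ± 0.18 (SE, n = 3 arrays each, adjusted p = 0.0173), or 1.87-fold. Within the long arrays the difference was 0.59 and within the short arrays 1.00. The call was lost without S1 replicate 2 (adjusted p = 0.0665), without S3 replicate 1 (0.0624), without S3 replicate 3 (0.0603) and with no intensity trend (0.0893), each with the same sign.

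Catalase, which splits hydrogen peroxide to water and oxygen, has 2 probe sets. The brighter (1416429_a_at) read 9.93, 9.60 and 9.94 in S1 and 10.23, 10.06 and 10.23 in S3. The subsets did not overlap, but the log2 change of 0.35 ± 0.13 (SE) was not called (adjusted p = 0.124). The dimmer one (1416430_at) read 8.19, 7.89 and 9.06 in S1 and 9.76, 8.65 and 9.73 in S3, where short and long arrays stood apart within each subset by 1.06. Its log2 change of 1.00 ± 0.40 was not called over 6 arrays (adjusted p = 0.177 over probe sets). With short and long arrays as a block it was 0.65 ± 0.13 and called (adjusted p = 0.00471), and it was 0.61 within the short and 0.68 within the long arrays. It was called in 8 of 19 other settings in all.

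Of the glutathione peroxidases, Gpx1 reduces hydrogen peroxide in the cytosol and Gpx4 reduces lipid peroxides in membranes; both are selenoproteins. Gpx1 read 10.68, 10.93 and 10.77 in S1 and 11.09, 11.08 and 10.93 in S3. The lowest S3 array lay just above the highest S1 array, and the log2 change of 0.24 ± 0.09 was not called (adjusted p = 0.112). This single probe set reads near the top of the array, where the brightest gene probe set of an array lay at 11.44 to 11.66. With the short and long array block Gpx1 was called over genes (0.26, adjusted p = 0.0359) but not over probe sets (adjusted p = 0.0542). Gpx4 read 9.57, 9.73 and 9.46 in S1 and 10.02, 9.88 and 9.36 in S3, so the subsets overlapped (0.17 ± 0.19, adjusted p = 0.645). Its other probe set (1451695_a_at) overlapped too, at 7.98 to 8.74 in S1 and 8.40 to 9.06 in S3 (0.48 ± 0.29, adjusted p = 0.394 over probe sets). Per array, Gpx1 minus Gpx4 differed by 0.08 between the subsets (1.20 ± 0.10 in S1 and 1.28 ± 0.26 in S3, SD, n = 3; two-sided exact permutation p = 0.8).

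Prdx2 encodes the peroxiredoxin that is among the most abundant proteins of red cells. Its bright probe set (1418506_a_at), at the 99.9th percentile of all probe sets by mean signal, read 10.92, 11.16 and 10.98 in S1 and 11.20, 11.18 and 11.08 in S3. The subsets overlapped there, and the log2 change was 0.14 ± 0.08 (adjusted p = 0.316). The dim probe set (1430979_a_at) read 5.46, 5.35 and 6.84 in S1 and 7.97, 7.12 and 7.94 in S3. Every S3 array lay above every S1 array, with a difference of 1.79 ± 0.50 (SE), or 3.47-fold, that missed the threshold over probe sets (adjusted p = 0.0663). It was called in 9 of 19 other settings, among them the short and long array block (1.42 ± 0.21, adjusted p = 0.00106), median centring (2.03, adjusted p = 0.00742), quantile normalization (2.15, adjusted p = 0.00364) and leaving out S1 replicate 3 (2.27, adjusted p = 0.0263). Its change ran from 1.12 to 2.27 and never turned sign. Averaging both probe sets gave a log2 change of 0.97 for the gene (adjusted p = 0.0478).

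**Figure D2:**
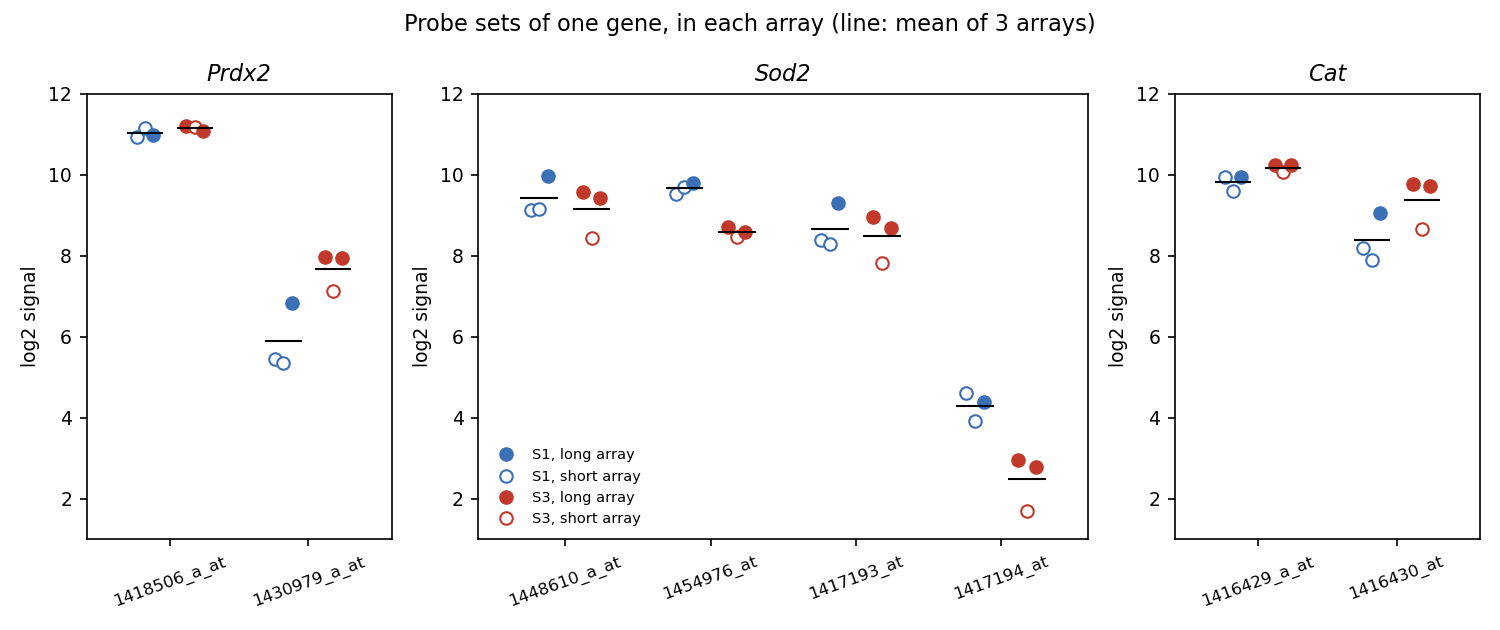
Log2 signal of every probe set of Prdx2, Sod2 and Cat on the 6 arrays, S1 in blue and S3 in red, with filled points for long and open points for short arrays and a line at each mean. The bright Prdx2 probe set stays between 10.92 and 11.20 on all arrays while the dim one spans 5.35 to 7.97, and Sod2 probe set 1454976_at has all S3 arrays below all S1 arrays.

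The superoxide dismutases are Sod1, the copper and zinc enzyme of the cytosol, and Sod2, the manganese enzyme of mitochondria. Sod1 read 11.11, 11.19 and 11.11 in S1 and 11.00, 11.11 and 10.98 in S3, again near the top of the array. S3 replicate 2 lay within the S1 range, and the log2 change of -0.10 ± 0.07 was not called (adjusted p = 0.351); its sign turned under both centrings of the arrays (0.13 and 0.36). A second bright probe set (1451124_at) changed by -0.05 ± 0.09 (adjusted p = 0.810 over probe sets), with the same turn. The dimmer 1435304_at (0.21 ± 0.59) and 1440222_at (-0.75 ± 0.76) were not called either, and 1447761_x_at was below background on all 6 arrays and was not tested.

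Sod2 gave a different answer for different probe sets. The brightest (1448610_a_at) read 9.14, 9.16 and 9.97 in S1 and 9.57, 8.44 and 9.42 in S3. Long arrays read higher than short ones by 0.94 within subsets, the subsets overlapped, and the log2 change was -0.28 ± 0.36 (adjusted p = 0.682). The nearly as bright 1454976_at read 9.52, 9.69 and 9.80 in S1 and 8.70, 8.46 and 8.59 in S3, with every S3 array below every S1 array, as for 25.1% of tested probe sets. It fell by 1.09 ± 0.17 (adjusted p = 0.00962 over probe sets), or 2.13-fold,; the difference was -1.15 within the short and -1.16 within the long arrays. The fall was not called with median centring (-0.86, adjusted p = 0.124), with centring on the genes tested (-0.62, adjusted p = 0.298), with the block and median centring (-0.70, adjusted p = 0.0541), with no intensity trend (adjusted p = 0.0608) or without S1 replicate 2 (adjusted p = 0.0592). Of the other 2, 1417194_at read 4.61, 3.91 and 4.39 in S1 and 2.95, 1.71 and 2.79 in S3, apart but not called (-1.82 ± 0.53, adjusted p = 0.0722); it was called in 3 of 18 other settings. The last, 1417193_at, overlapped between the subsets (-0.17 ± 0.39, adjusted p = 0.858).

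With the short and long array block all 4 Sod2 probe sets were called lower, among 34.2% of all tested probe sets. Their log2 changes were then -0.59, -1.15, -0.50 and -2.04 (adjusted p = 0.00377, 1.73e-04, 0.0171 and 0.00704). In that fit the median change of all genes was -0.54, and the changes of 1448610_a_at and 1417193_at are near it. With the block and median centring these read -0.14 (adjusted p = 0.758 over genes) and -0.054 (adjusted p = 0.927 over probe sets). Under centring on the genes tested the brightest and 1417193_at turned to 0.19 and 0.29, while 1454976_at and 1417194_at kept their sign in all settings run. Per array, Sod1 minus Sod2 was 1.71 ± 0.50 in S1 and 1.89 ± 0.69 in S3 (SD, n = 3). The means differed by 0.17 (two-sided exact permutation p = 0.8). This difference was 1.97 and 2.03 on the short S1 arrays and 2.68 on the short S3 array. On long arrays it was 1.13 in S1 and 1.43 and 1.55 in S3. The test leaves out array type, which splits these values, so it cannot decide whether the subsets differ.

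Glutamate-cysteine ligase makes the first and limiting step of glutathione synthesis, with Gclc as its catalytic and Gclm as its modifier subunit. Gclc (1455959_s_at) read 5.95, 5.71 and 7.80 in S1 and 8.11, 6.51 and 8.03 in S3. Long arrays stood 1.77 above short ones within subsets, more than the log2 change of 1.06 ± 0.68 between subsets (adjusted p = 0.362). That change was 0.68 within the short and 0.27 within the long arrays. Its other probe set (1424296_at) read 4.77 to 6.97 in S1 and 5.34 to 7.86 in S3 (1.37 ± 0.84, adjusted p = 0.395 over probe sets).

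Gclm (1439050_at) read 8.65, 8.27 and 9.05 in S1 and 9.36, 8.77 and 9.32 in S3, overlapping through the short S3 array (0.49 ± 0.26, adjusted p = 0.272). Its probe set 1418627_at read 7.92, 7.82 and 9.20 in S1 and 9.86, 8.31 and 9.56 in S3 (0.93 ± 0.50, adjusted p = 0.323 over probe sets). Long arrays read 1.37 above short ones there, and with the block the log2 change was 0.47 ± 0.13 and called (adjusted p = 0.0223). Gclm minus Gclc was 2.70 and 2.56 on the short S1 arrays and 2.26 on the short S3 array, but 1.25 to 1.29 on all long arrays. Its subset means were 2.17 ± 0.80 in S1 and 1.60 ± 0.57 in S3 (SD, n = 3, two-sided exact permutation p = 0.4). That test leaves out array type, which splits these values, so it cannot decide whether the subsets differ. The smallest p these 3 exact tests can give is 0.1, and all 3 had an adjusted p of 0.8.

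**Figure D3:**
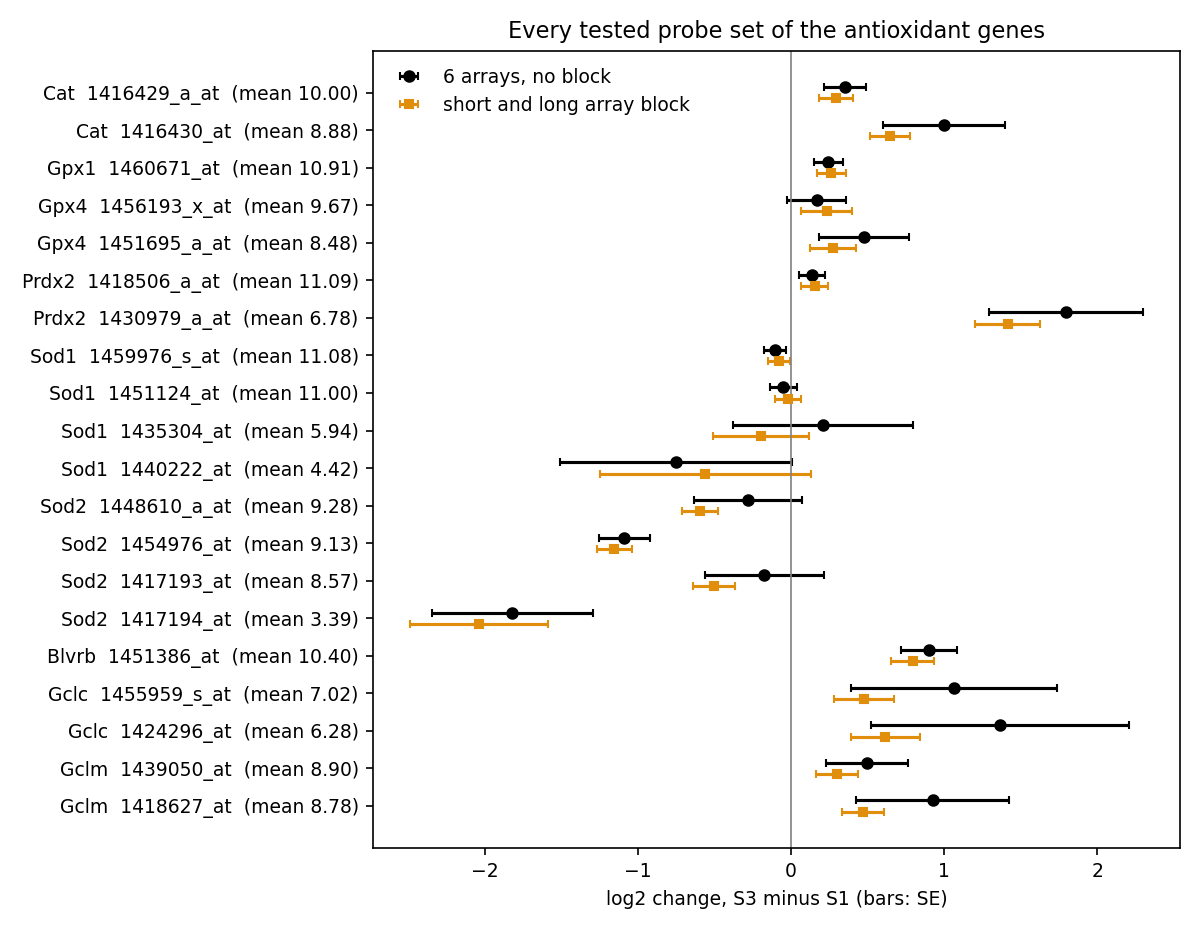
Log2 change S3 minus S1 of all 20 tested antioxidant probe sets, with bars for the SE, over 6 arrays without a block (black circles) and with short and long arrays as a block (orange squares). The dim Prdx2 probe set stands farthest right, at 1.79 and 1.42, Sod2 probe sets 1454976_at and 1417194_at stand left of 0 in both fits, and the bright Sod1 probe sets lie near 0, at -0.10 and -0.05 without the block.

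Over all 20 tested probe sets, 1 was called higher (Blvrb, beside 1.82% of all tested probe sets) and 1 lower (Sod2, beside 8.12%). With the short and long array block 4 were called higher (beside 4.86%) and 4 lower (beside 34.2%). The 4 higher ones were those of Blvrb, the dim Prdx2, the dimmer Cat and Gclm 1418627_at, and the 4 lower ones were all of Sod2. The subsets did not overlap for 4 probe sets higher in S3 (beside 5.35% of all) and 2 lower (beside 25.1%). Scaling moved these results. The median change of all genes was -0.33 as deposited, -0.54 with the short and long array block, -0.10 with median centring, -0.07 with quantile normalization and 0.13 with centring on the genes tested. Relative to the deposited median, all 9 brightest probe sets lay above it, from 0.05 for Sod2 to 1.40 for Gclc. They were not compared with equally bright genes, so this is not read as a trait of the 9. With quantile normalization Cat (0.51, adjusted p = 0.0404) and Gclm (0.77, adjusted p = 0.0230) were called beside Blvrb, so that 3 of 9 genes were higher against 5.84% of all genes.

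**Figure D4:**
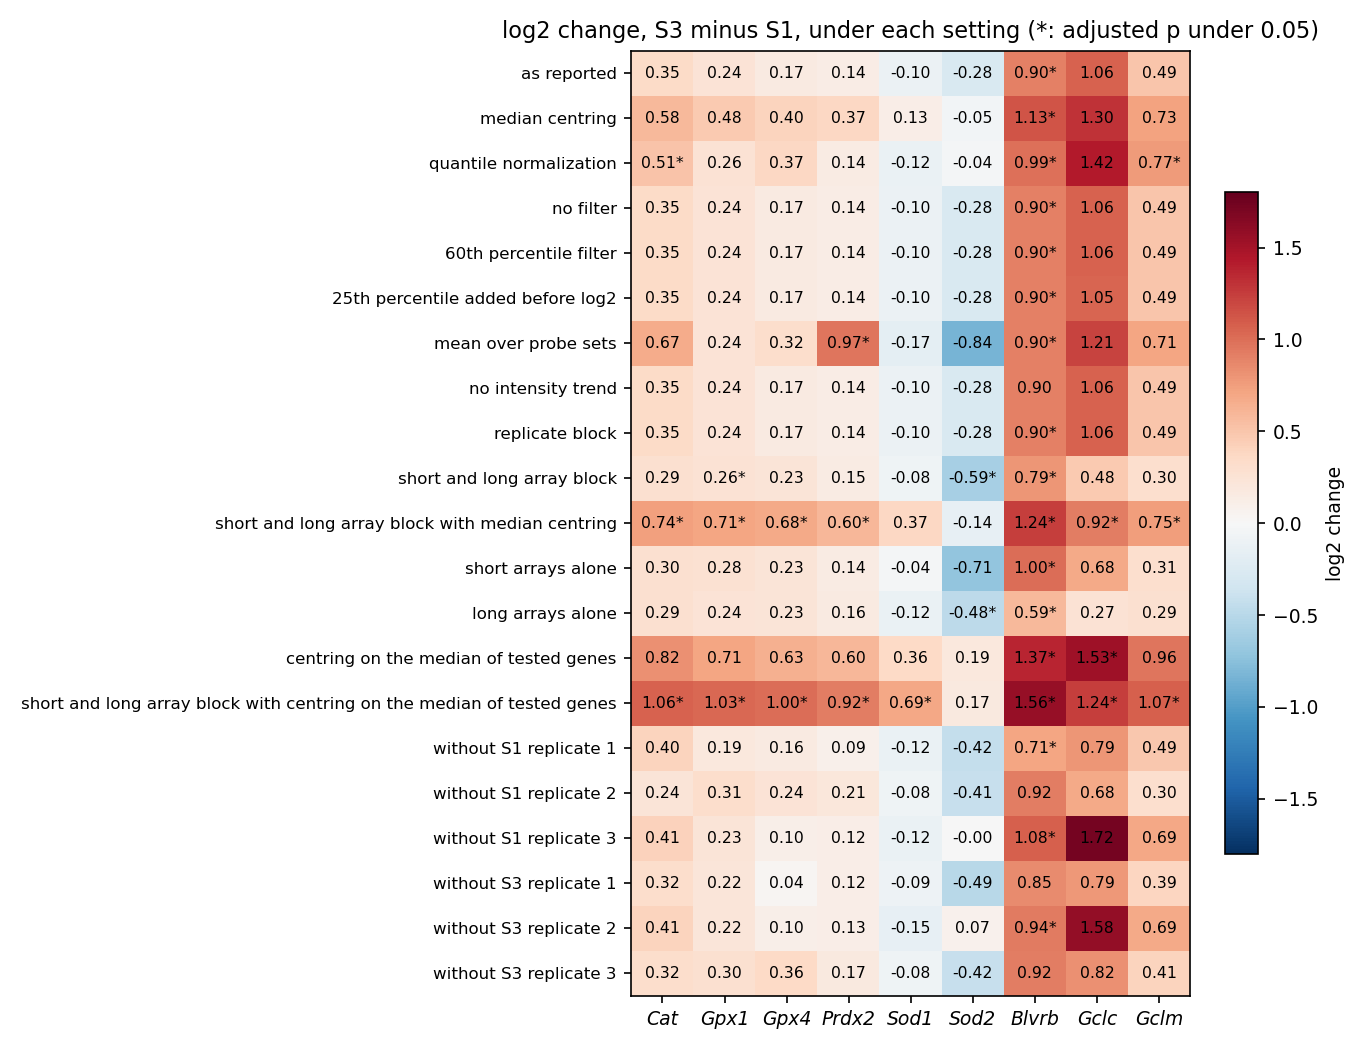
Log2 change S3 minus S1 of the 9 antioxidant genes (columns) under each setting (rows), red for higher and blue for lower in S3, with an asterisk where the adjusted p was under 0.05. Blvrb is positive in every row, from 0.59 to 1.56, and Sod1 and Sod2 turn sign when arrays are centred on the genes tested.

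The 250 bases before the annotated start sites of Blvrb (both of them), Prdx2, Cat and Sod2 are shown (RefSeq, GRCm38.p6). Blvrb and Sod2 hold the probe sets called above. Dimmer probe sets of Prdx2 and Cat were called in 9 and 8 of 19 other settings. Windows of the other genes, among them Gpx1 and Gclm, are not shown. Capitals mark matches, on either strand, to the motifs searched. The first was a CACCC-type motif (CCNCNCCC), the letters to which erythroid Kruppel-like factors bind and which also fit GC boxes.
Blvrb, chr7:27447728-27447977 (+ strand): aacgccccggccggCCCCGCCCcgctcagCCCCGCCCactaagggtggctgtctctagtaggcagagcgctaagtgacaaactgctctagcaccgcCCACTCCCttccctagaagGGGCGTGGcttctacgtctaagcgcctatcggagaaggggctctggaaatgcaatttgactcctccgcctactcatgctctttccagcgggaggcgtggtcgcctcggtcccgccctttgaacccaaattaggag
Blvrb, second start, chr7:27452168-27452417 (+ strand): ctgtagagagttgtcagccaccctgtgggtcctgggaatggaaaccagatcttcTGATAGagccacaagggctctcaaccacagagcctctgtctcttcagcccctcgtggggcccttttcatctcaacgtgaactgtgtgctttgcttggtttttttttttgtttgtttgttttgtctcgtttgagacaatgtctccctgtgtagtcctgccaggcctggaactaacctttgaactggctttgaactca
Prdx2, chr8:84969372-84969621 (+ strand): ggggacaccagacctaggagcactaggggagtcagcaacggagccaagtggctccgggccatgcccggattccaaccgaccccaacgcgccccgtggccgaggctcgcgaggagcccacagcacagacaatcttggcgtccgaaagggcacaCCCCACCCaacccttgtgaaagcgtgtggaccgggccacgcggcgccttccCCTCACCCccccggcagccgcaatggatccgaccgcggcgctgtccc
Cat, chr2:103485154-103485403 (- strand): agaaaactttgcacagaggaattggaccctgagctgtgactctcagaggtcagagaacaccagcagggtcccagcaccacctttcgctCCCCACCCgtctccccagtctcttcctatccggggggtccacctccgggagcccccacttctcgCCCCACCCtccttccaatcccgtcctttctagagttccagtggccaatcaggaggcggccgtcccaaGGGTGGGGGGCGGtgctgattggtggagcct
Sod2, chr17:13007589-13007838 (+ strand): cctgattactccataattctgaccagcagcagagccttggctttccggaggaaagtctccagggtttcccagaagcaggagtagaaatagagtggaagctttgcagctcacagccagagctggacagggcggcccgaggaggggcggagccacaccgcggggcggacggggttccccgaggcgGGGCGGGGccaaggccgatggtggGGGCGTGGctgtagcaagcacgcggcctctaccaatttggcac
Also searched were GATA motifs (AGATAA or AGATAG, and either one with T in its first place) and the core of the antioxidant response element (TGACNNNGC), to which Nrf2 binds; of the windows shown, the second of Blvrb holds a GATA match and the others hold neither. CACCC-type letters matched 4 times before the first start of Blvrb, 4 before Cat, 2 before Prdx2 and 2 before Sod2. The Cat matches at 31 and 26 bases before the start overlap, and overlapping matches were counted separately. Shares of windows that held each motif follow. Of all 32851 windows of this length, 45.9% held the CACCC-type letters, 26.5% a GATA motif and 10.2% the response element core. Of 13 windows of 9 genes on the list, 10 held the CACCC-type letters, 4 a GATA motif (3 of Gpx4, which has 4 start sites, and the second start site of Blvrb) and 3 the response element core (Prdx1, Sod1 and Gclm). In the Sod1 window a CACCC-type match and the response element core overlap. The Gpx1 window held no match to any motif searched. These are matches of letters and do not show binding.

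Lists of partner genes, 6 lists with 112 genes in all, place the 9 in their pathways. Of these, 101 were tested, 3 were called higher, beside 2.53% of all genes, and 13 lower, beside 12.8%. These counts are near the shares over all genes. The median log2 change was -0.19, beside -0.33 for all genes. With the short and long array block 12 were higher, beside 5.81% of all genes, and 42 lower, beside 41.2%. The counts of single lists below are to be read against the same 2.53% and 12.8%.

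Among 26 tested genes of glutathione synthesis, recycling and use, 2 rose (beside 2.53% of all genes) and 2 fell (beside 12.8%). Hagh, which hydrolyses a glutathione ester formed from methylglyoxal, rose from 7.58 to 8.74 (1.16 ± 0.28, adjusted p = 0.0332), and Gstt1, a glutathione transferase, from 2.61 to 5.13 (2.53 ± 0.66, adjusted p = 0.0413). Each lost its call in 7 of 20 other settings. Gstt1 read 2.48, 1.39 and 3.95 in S1, with replicate 2 near its background of 1.13. Its rise was 3.15 within the short and 1.21 within the long arrays. Gsto1, an omega class transferase, fell from 9.24 to 7.12 (-2.13 ± 0.29, adjusted p = 0.00491), and Ggct, which breaks down gamma-glutamyl peptides, from 7.13 to 4.74 (-2.40 ± 0.38, adjusted p = 0.00788).

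Among 19 tested genes of the thioredoxin system, the other peroxiredoxins and methionine sulfoxide repair, 1 rose and 2 fell, beside 2.53% and 12.8% of all genes. Srxn1 encodes sulfiredoxin, which restores overoxidised peroxiredoxins such as Prdx2. It read 5.60, 5.49 and 5.72 in S1 and 8.01, 7.55 and 7.93 in S3, with no overlap. Its rise of 2.22 ± 0.31 (adjusted p = 0.00552), or 4.67-fold, was called in all 20 other settings, between 2.01 and 2.89. Txnrd3, a thioredoxin reductase, read 6.30, 6.27 and 6.29 in S1 and 3.50, 2.98 and 2.93 in S3. It fell by 3.15 ± 0.38 (adjusted p = 0.00362), also called in all 20. Nxn, a thioredoxin-like protein, fell by 2.06 ± 0.46 (adjusted p = 0.0256), and lost its call in 7 of 20 other settings, 5 of them with 1 array left out (adjusted p = 0.0510 to 0.0978).

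NADPH, on which both glutathione and thioredoxin depend, comes from the pentose phosphate path and a few other dehydrogenases. Of 14 tested genes of its supply, 6 fell (beside 12.8% of all genes), none rose (beside 2.53%) and 8 were not called, with a list median of -0.97. G6pdx of the pentose phosphate path was not among the 14 tested. Idh1, the cytosolic isocitrate dehydrogenase, went from 9.29 to 7.99 (-1.31 ± 0.19, adjusted p = 0.00572) and Nnt, the mitochondrial transhydrogenase, from 9.72 to 8.28 (-1.44 ± 0.23, adjusted p = 0.00791). Pgd, an enzyme of the pentose phosphate path, went from 9.98 to 8.95 (-1.03 ± 0.22, adjusted p = 0.0223). It lost its call in 7 of 20 other settings, among them median centring (-0.79, adjusted p = 0.134). H6pd, a hexose-6-phosphate dehydrogenase of the endoplasmic reticulum, went from 5.84 to 2.14 (-3.70 ± 0.81, adjusted p = 0.0235), with S3 replicate 3 at 0.35, below background. The other genes that fell, named after their values were seen, were Me2, a mitochondrial malic enzyme (-1.08 ± 0.25, adjusted p = 0.0277), and Pgls, of the pentose phosphate path (-0.94 ± 0.25, adjusted p = 0.0445). Me1, also named after its values were seen, went the other way without a call, from 2.09 to 4.35 (2.26 ± 0.66, adjusted p = 0.0590). Its S1 replicates 1 and 2, at 1.30 and 1.48, were near background. With median centring 2 of the 14 were called lower, beside 8.13% of all genes, and 1 higher, beside 478 of the 11959 genes tested.

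**Figure D5:**
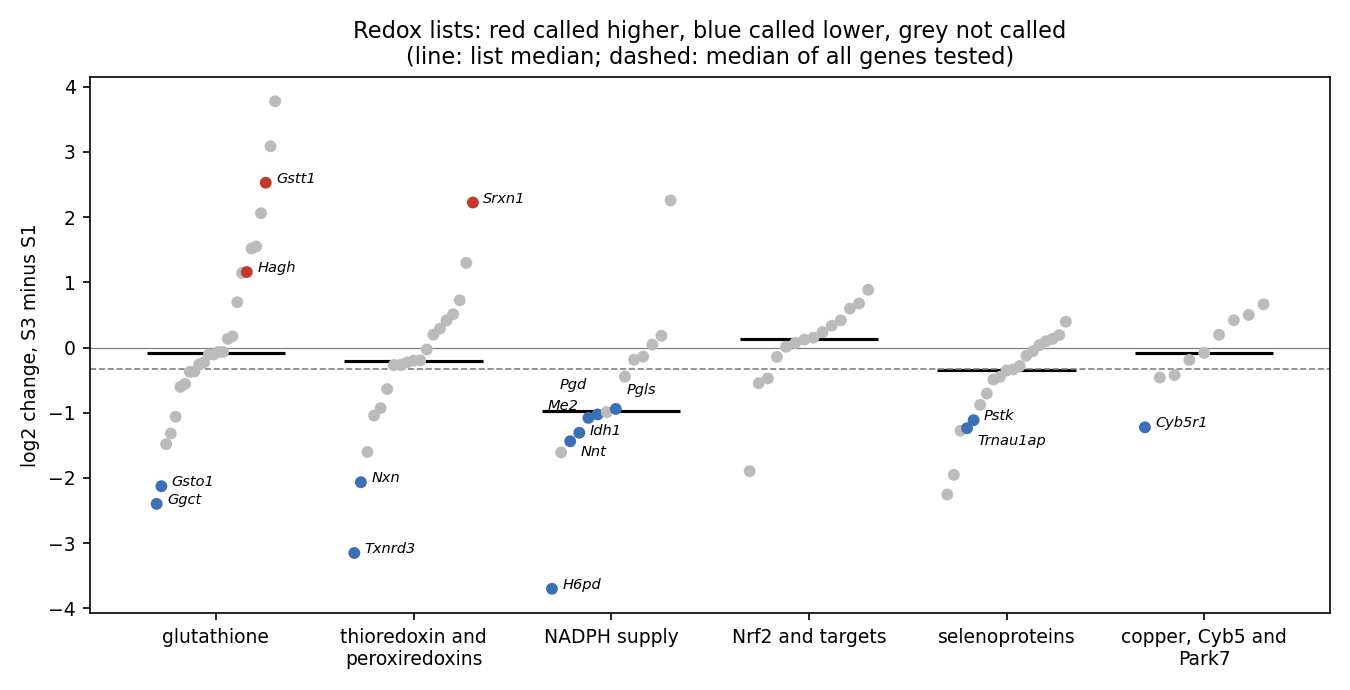
Log2 change S3 minus S1 of 101 tested genes in 6 redox lists, red where called higher, blue where called lower and grey otherwise, with a line at each list's median and a dashed line at the -0.33 of all genes tested. The NADPH supply list has its median at -0.97 and 6 genes in blue, while no gene of the Nrf2 list is coloured.

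None of 14 tested genes of the Nrf2 list was called without a block. With the short and long array block 2 were called higher (beside 5.81% of all genes) and 6 lower (beside 41.2%). Nrf2 is the factor that raises many antioxidant genes under oxidative stress. Each gene was placed in a single list or among the members, so this list does not hold all genes Nrf2 can raise. Srxn1, Txnrd1, Gclc and Gclm were counted elsewhere. The list's smallest p-values belonged to Abcc4, an efflux transporter (-1.90 ± 0.54, adjusted p = 0.0557), and Blvra, which reduces biliverdin IXalpha (8.31 in S1 and 8.91 in S3, 0.60 ± 0.20, adjusted p = 0.0843). Of 19 genes of selenocysteine insertion and other selenoproteins, on whose machinery Gpx1 and Gpx4 depend, 2 fell and none rose, and the 2 are near the 12.8% of all genes called lower. These were Trnau1ap, which associates with the selenocysteine tRNA (-1.24 ± 0.22, adjusted p = 0.0123), and Pstk, the kinase that modifies that tRNA's serine (-1.11 ± 0.26, adjusted p = 0.0276). Of 9 tested genes of copper and superoxide handling, methaemoglobin reduction and Park7, 1 fell (beside 12.8% of all genes), the cytochrome b5 reductase homologue Cyb5r1 (-1.22 ± 0.25, adjusted p = 0.0182). Trnau1ap, Pstk and Cyb5r1 all lost their calls with median centring (adjusted p = 0.115, 0.171 and 0.0996).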

How the data were processed

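RNA of 3 S1 and 3 S3 samples was amplified with Ovation reagents and hybridised to Affymetrix mouse expression arrays, per the labels. MAS5 signals (version not given in the sources used here) were normalized by the authors to 18S RNA, Gapdh and beta-actin, per the series' design text. The deposited values are taken as log2 signals, since they reach below 0; the base is not stated. Nothing more was added to them.

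Of 45101 probe sets, 34945 carried 1 gene symbol in the platform annotation and 932 several; only the former were named, and the reference gene table (GRCm38.p6) changed 0 symbols. Probe sets above the 40th percentile of mean signal were tested, the brightest per gene. The difference between subsets was tested in limma 3.58.1 under R 4.3.3, two-sided, with an intensity trend and Benjamini-Hochberg adjustment. The number of arrays limits precision. Background is the 95th percentile of 27 bacterial control probe sets per array.

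The members and lists were chosen with earlier results of these data known. Named are all member probe sets and, per list, up to 4 called genes with the smallest p, or the 2 smallest where none was called. The planned comparison of Prdx2 with Prdx1 could not be made. Alternatives, including 2 added after seeing the data, are given at the end.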

Additional observations from a re-analysis of the deposited data

How the results depend on the processing

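As reported, 302 of all genes tested were called higher and 1533 lower, with 1 antioxidant gene higher and 0 lower, 1 antioxidant probe set in each direction, and 3 higher and 13 lower of the redox lists. The counts below are those that moved by over 1.5 times, and the log2 changes those of genes newly called and of genes or probe sets with the sign turned; the cause was not tested. Of probe sets that are not the brightest of their gene, Prdx2 1430979_a_at was newly called in 9 other settings, Cat 1416430_at in 8, Gclm 1418627_at in 5, Gclc 1424296_at and Sod2 1417194_at in 3 each, Gpx4 1451695_a_at in 2 and Sod2 1417193_at in 1.

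Median centring gave 478 genes higher and 972 lower, 7 redox genes in each direction and 3 antioxidant probe sets higher and 0 lower, with Sod1 at 0.13, Sod1 1451124_at at 0.18 and Sod2 1417193_at at 0.058. Quantile normalization gave 698 genes, 10 redox genes, 3 antioxidant genes and 5 antioxidant probe sets higher, beside 5.84% of all genes and 4.74% of all probe sets. Cat was at 0.51, Gclm at 0.77 and Sod2 1417193_at at 0.11. Gpx1 minus Gpx4 turned to -0.11 and Sod1 minus Sod2 to -0.082. Centring on the genes tested, chosen after seeing the data, gave 709 genes higher and 693 lower, 14 redox genes higher and 6 lower, 2 antioxidant genes higher, and 5 antioxidant probe sets higher and 0 lower. These stood beside 5.93% of all genes higher and 5.79% lower, and 5.05% and 4.11% of all probe sets. Gclc was then at 1.53, Sod1 at 0.36, Sod2 at 0.19, Sod1 1451124_at at 0.42 and Sod2 1417193_at at 0.29.

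The short and long array block gave 695 genes higher and 4922 lower, 12 redox genes higher and 42 lower, 2 antioxidant genes higher and 1 lower, and 4 antioxidant probe sets in each direction. These stood beside 5.81% of all genes higher and 41.2% lower, and 4.86% and 34.2% of all probe sets. Gpx1 was at 0.26, Sod2 at -0.59 and Sod1 1435304_at at -0.20. The block with median centring gave 1024 genes, 21 redox genes, 7 antioxidant genes and 8 antioxidant probe sets higher, beside 8.56% of all genes and 7.13% of all probe sets. In this fit over genes limma gave nearly all weight to a variance shared over genes (prior degrees of freedom 212, beside 3.41 as reported). Cat was at 0.74, Gclc 0.92, Gclm 0.75, Gpx1 0.71, Gpx4 0.68, Prdx2 0.60, Sod1 0.37 and Sod1 1451124_at 0.43. The block with centring on the genes tested, also chosen after seeing the data, gave 2818 genes, 49 redox genes, 8 antioxidant genes and 14 antioxidant probe sets higher. These stood beside 23.6% of all genes and 19.0% of all probe sets. Changes were then 1.06 for Cat, 1.24 for Gclc, 1.07 for Gclm, 1.03 for Gpx1, 1.00 for Gpx4, 0.92 for Prdx2, 0.69 for Sod1, 0.17 for Sod2, 0.75 for Sod1 1451124_at, 0.21 for Sod1 1440222_at and 0.27 for Sod2 1417193_at. Long arrays alone gave 617 genes higher and 4151 lower, 7 redox genes higher and 31 lower, 1 antioxidant gene lower, and 5 antioxidant probe sets higher and 2 lower. Sod2 was at -0.48, Sod1 1451124_at at 0.0084, Sod1 1435304_at at -0.24 and Gclm minus Gclc at 0.027. Short arrays alone gave 2601 genes lower, 8 redox genes higher and 22 lower, with Sod1 1435304_at at -0.16. In both, 1 arm holds a single array assumed to vary like the rest.

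The mean over probe sets gave 991 genes lower and 2 antioxidant genes higher (beside 2.02% of all genes), with Prdx2 at 0.97 and Gpx1 minus Gpx4 at -0.079. With no intensity trend 0 antioxidant genes and 1 redox gene were called higher (beside 1.92% of all genes), and Blvrb (0.90) was not called. Of antioxidant probe sets 0 were called in either direction, beside 1.20% of all probe sets higher and 5.81% lower. The labels do not say that a replicate number marks a shared day, and same-numbered deviations correlated at -0.19, 0.36 and 0.43, so the numbers were not taken to pair the arrays. With the replicate block 5 redox genes were higher (beside 3.45% of all genes), and 3 antioxidant probe sets were higher (beside 2.67% of all probe sets) and 2 lower (beside 10.5%). Newly called then were Cat 1416430_at (adjusted p = 0.0415), Prdx2 1430979_a_at (0.0326) and Sod2 1417194_at (0.0481).

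Leaving out 1 array at a time gave 119 to 370 genes higher and 541 to 1273 lower, 1 to 10 redox genes higher and 5 to 14 lower, 0 to 1 antioxidant genes higher, and 0 to 2 antioxidant probe sets higher and 0 to 1 lower. Changes ran from 0.71 to 1.08 for Blvrb, -0.49 to 0.074 for Sod2, -0.088 to 0.024 for Sod1 1451124_at, -0.19 to 0.63 for Sod1 1435304_at, -0.41 to 0.16 for Sod2 1417193_at, -0.069 to 0.18 for Gpx1 minus Gpx4 and -0.22 to 0.40 for Sod1 minus Sod2. With 3 arrays a subset, and Prdx2, Sod1 and Gpx1 near the highest signals of the arrays, changes of those genes were measured near the upper end of the scale.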
